A study of Mus musculus with 27 samples.

Results

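A set of 10 NF-κB and inflammasome genes was followed across cell types and genotypes in single-nucleus RNA-seq of the mouse hippocampus. The members were taken by symbol, as Nfkb1, Nfkb2, Rel, Relb, Nfkbia, Tnfaip3, Nlrp3, Casp1, Il1b and Tnf, and are 10 of the 31053 genes counted. Each of 27 mice, aged 8 to 10 months, gave 1 library of DAPI-stained nuclei sorted from frozen hippocampus. The groups crossed the P301S transgene (a mutant human tau found in familial dementia, under the mouse Prnp promoter) with deletion of Cgas, which encodes a sensor of cytosolic DNA. The labels gave 5 Cgas+/+ (3 male, 2 female), 2 Cgas+/- and 2 Cgas-/- mice (all male) without P301S, and, with P301S, 6 mice (3 male, 3 female) for each of these Cgas genotypes. All came from crosses of P301S with Cgas-/- mice, with non-transgenic littermates as controls, and the Cgas deletion was carried in every cell type. The Prnp promoter is not specific to microglia.

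NF-κB is a family of transcription factors made of paired subunits. Nfkb1 and Nfkb2 encode precursors of the p50 and p52 subunits, and Rel and Relb encode subunits that activate transcription. In resting cells inhibitors hold the dimers in the cytoplasm. Kinases activated by cytokine, pattern recognition or DNA-sensing receptors lead to loss of the inhibitor and entry of the dimer into the nucleus. Nfkbia encodes the inhibitor IκBα and Tnfaip3 encodes A20, a ubiquitin-editing brake. Both are textbook NF-κB targets, which makes their transcripts part of a feedback loop. Nlrp3 encodes a sensor that assembles the inflammasome, Casp1 the protease it activates, and Il1b the cytokine precursor that this protease cuts. Tnf encodes the cytokine TNF. In brain these genes are best known from microglia, the resident macrophages.

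The κB element, the DNA sequence that NF-κB dimers bind, was searched for in RefSeq promoters (GRCm38.p6, 250 bases before to 50 after each start) on both strands. The table held 12 promoters of 8 of the 10 genes, and Nfkb1 and Relb had none in it. The κB consensus occurred in 7 of these 12 promoters, against 4.51% of all 32851 promoters. Of these 7, 3 were alternative Nfkb2 promoters, and 2 of those overlapped and shared a match. By gene, 5 of 8 had a match. The 30-base windows below are shown because they carry the element at the feedback inhibitors and at 3 other members. They read 5′ to 3′ on the strand of the gene, and capitals mark the consensus match.
Nfkbia: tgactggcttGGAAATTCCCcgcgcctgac
Tnfaip3: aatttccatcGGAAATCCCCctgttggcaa
Tnfaip3 (upstream match): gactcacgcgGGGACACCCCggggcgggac
Rel: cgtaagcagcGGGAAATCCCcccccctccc
Nfkb2: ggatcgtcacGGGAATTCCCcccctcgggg
Nlrp3: ggcttctgcaGGGAACCCCCgggaattctg
The Nfkbia window lies at chr12:55492657-55492686 (minus strand). The Tnfaip3 windows lie at chr10:19015403-19015432 and chr10:19015516-19015545 (minus strand). The others lie at chr11:23771042-23771071 (Rel, minus strand), chr19:46304688-46304717 (Nfkb2, plus strand) and chr11:59541373-59541402 (Nlrp3, plus strand). The Nfkbia match starts 29 bases before the start site, and the 2 Tnfaip3 matches start 12 and 125 bases before it. In Rel and Nfkb2 a second, overlapping match was shifted by 1 base. The windows of Il1b, Casp1 and Tnf held no match, which says only that these letters were not in them. A match is a description of the sequence and not of binding.

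In GENCODE vM21 (GRCm38), Nfkb1 (ENSMUSG00000028163) lies on chromosome 3 from 135584655 to 135691547 and Relb (ENSMUSG00000002983) on chromosome 7 from 19606217 to 19629438. Nfkbia (ENSMUSG00000021025) lies on chromosome 12 from 55489410 to 55492647 and Tnfaip3 (ENSMUSG00000019850) on chromosome 10 from 19000910 to 19015657. Nlrp3 (ENSMUSG00000032691) lies on chromosome 11 from 59541568 to 59566956, Il1b (ENSMUSG00000027398) on chromosome 2 from 129364570 to 129371139 and Tnf (ENSMUSG00000024401) on chromosome 17 from 35199381 to 35202007. Il1b overlaps the antisense gene Il1bos and Nfkb2 overlaps Psd on the other strand. Whether the counting used strand is not given in the sources used here, so these 2 genes are uncertain.

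The files held 46091490 to 79484316 UMIs (unique molecular identifiers, 1 per captured RNA molecule) per mouse. After filters and doublet removal, 204852 of 241938 barcodes were kept and grouped into 50 clusters, of which 11389 nuclei (5.56%) were microglia-like. The microglia-like nuclei of a library numbered 217 to 1206 with P301S and 218 to 571 without, with median depths of 1794 and 1455 UMIs per nucleus over the libraries. Pairs of libraries shared at most 44 barcodes. Cgas itself did not follow the labels in microglia-like nuclei: libraries labelled P301S Cgas-/- held 51.4 ± 6.99 CPM (SD, n = 6; UMIs of the gene scaled to 1000000 of the class), P301S Cgas+/+ 37.9 ± 11.7 CPM (n = 6), Cgas+/+ 35.4 ± 2.41 CPM (n = 5) and Cgas-/- 27.3 CPM (n = 2). Libraries labelled P301S Cgas+/- held 42.7 ± 11.2 CPM (n = 6) and Cgas+/- 19.1 CPM (n = 2). Where along Cgas the UMIs fell is unknown from a gene count, and RNA from outside a deleted part would still add to it, so the Cgas level does not check the labels. Groups are named here by their labels. For the members, results of the tau, deletion and heterozygous contrasts in microglia-like nuclei are given with and without P301S Cgas+/+ replicate 2. That choice was made after its values were seen. Some unnamed clusters came mostly from 1 library, up to 81.4% of their nuclei, and were not used.

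Microglia-like nuclei made up a small part of the RNA but held most UMIs of Nlrp3, Tnf and Il1b. They contributed 1.71% of all UMIs and 90% of the Nlrp3 UMIs, 83.1% of Tnf and 63.9% of Il1b. Excitatory neuron-like nuclei gave 48% of the Casp1 UMIs, at a far lower level per UMI. The microglial share was 29.1% for Casp1, 28.4% for Nfkb2, 25% for Tnfaip3, 18.2% for Rel, 13.4% for Relb, 8.26% for Nfkb1 and 6.75% for Nfkbia. Nlrp3 was at 73.7 CPM in pooled microglia-like nuclei (1457 UMIs), and endothelial-like nuclei held 0 UMIs of it (exact 95% Poisson upper limit 2.09 CPM). Nfkb1, Rel, Relb, Tnfaip3 and Nlrp3 were each higher in microglia-like than in astrocyte-like, oligodendrocyte-like, excitatory neuron-like and inhibitory neuron-like nuclei in 27 of 27 mice. Nlrp3 was detected in 11.2% of microglia-like nuclei.

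Nfkbia had another order. It was highest in endothelial-like nuclei, at a pooled 204 CPM (95% Poisson interval 184 to 227), against 23.3 CPM (21.2 to 25.5) in microglia-like nuclei. Microglia-like nuclei were the higher of these classes in 2 of the 26 mice with endothelial-like nuclei. Against astrocyte-like nuclei they were higher in 11 of 27 mice, so these neighbours in the order did not separate. T cell-like nuclei (313 in all) held the highest pooled Tnf level, 38.6 CPM from 12 UMIs (19.9 to 67.3), against 7.69 CPM (6.51 to 9.01) in microglia-like nuclei. Those 12 UMIs came from 6 of 25 libraries, and within mice microglia-like nuclei were the higher in 17 of 25. Their pooled Tnfaip3 level was 28.9 CPM from 9 UMIs (13.2 to 54.9), and that interval held the 18.2 CPM of microglia-like nuclei. Intervals here and below cover counting error only.

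**Figure D1:**
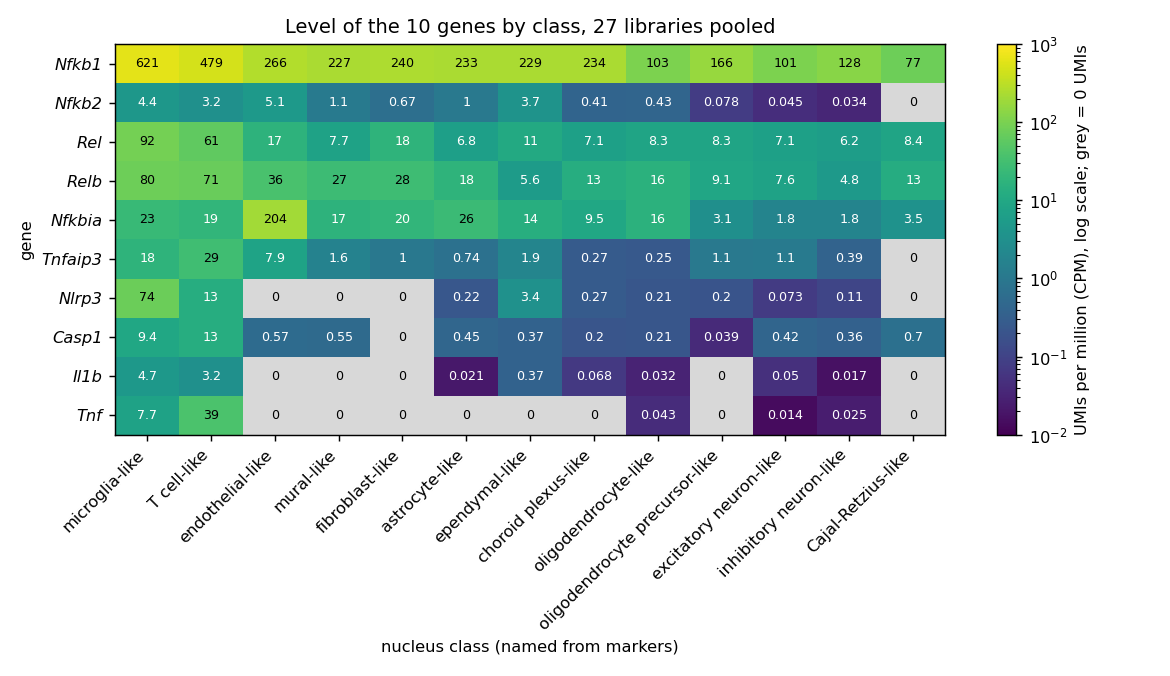
Heat map of the pooled level of the 10 genes (rows) in 13 classes of nuclei (columns) over 27 libraries, as CPM on a log colour scale, with grey for 0 UMIs. Nlrp3 is highest in microglia-like nuclei (73.7 CPM pooled), and Nfkbia in endothelial-like nuclei (204 CPM pooled).

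Within microglia-like nuclei the order of pooled levels was Nfkb1 (621 CPM), Rel (92 CPM), Relb (80.4 CPM), Nlrp3 (73.7 CPM), Nfkbia (23.3 CPM), Tnfaip3 (18.2 CPM), Casp1 (9.41 CPM), Tnf (7.69 CPM), Il1b (4.65 CPM) and Nfkb2 (4.40 CPM). Pre-mRNA counts grow with gene length, so this is an order of UMIs and not of transcripts. Per kilobase of gene, Nfkbia was at 7.20 CPM, Nfkb1 at 5.81 CPM, Nlrp3 at 2.90 CPM and Tnf at 2.93 CPM in the same nuclei.

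The transgene was tested first over all 27 mice, as P301S minus non-transgenic with the Cgas genotypes weighted equally (the P301S contrast). Of the 3 groups without P301S, the 2 labelled Cgas+/- and Cgas-/- held males only. All their libraries had version 3.0.2 of the counting software in the file header, as did 6 of 18 P301S libraries. Among the subunits, Nfkb1 and Relb were higher in P301S microglia-like nuclei and Rel was not called. Of the inhibitor genes, Nfkbia was also higher, and Tnfaip3 was called higher with the limit given below. Of the 10 genes, 7 passed the filter on low counts, 4 of these 7 were called and all 4 were higher with P301S. Over all 9712 genes tested, 1123 (11.6%) were called and 720 (7.41%) were called higher. The 3 genes under the filter were Nfkb2, Il1b and Tnf. The filter asks for 15.8 CPM in at least 2 libraries, which Tnfaip3 reached in 12 of 18 P301S libraries and 1 of 9 others, and Casp1 in 3 and 0. These 2 genes passed through the P301S libraries, so the count of 4 of 7 is not read as a share. For the same reason the call of Tnfaip3 is not read as support. Nfkbia reached that level in 17 and 2 libraries, and Nfkb1 and Relb in all 27. With no filter, Tnfaip3 was at 1.10 (edgeR adjusted p = 0.00189). Fewer cells of a state and less RNA per cell cannot be told apart in such sums.

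Nfkb1 was the member with the most UMIs in microglia-like nuclei. The 5 Cgas+/+ libraries held 433, 434, 476, 410 and 422 CPM, the 2 Cgas+/- libraries 414 and 406 CPM and the 2 Cgas-/- libraries 420 and 438 CPM. The lowest, median and highest of 6 libraries were 479, 662 and 796 CPM in P301S Cgas+/+, 443, 604 and 833 CPM in P301S Cgas+/- and 614, 670 and 753 CPM in P301S Cgas-/-. Of the 18 P301S libraries, 17 lay above all 9 without the transgene, and 1 overlapped with them. The means were 646 ± 112 CPM (SD, n = 18) and 428 ± 21 CPM (n = 9). The log2 fold change was 0.59 ± 0.11 (SE; 95% interval 0.38 to 0.80; edgeR adjusted p = 0.00195).

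Relb encodes the subunit of the non-canonical arm. Its values were 47.1, 39.0, 53.9, 29.3 and 42.9 CPM in Cgas+/+, 59.7 and 33.2 CPM in Cgas+/-, and 42.9 and 46.4 CPM in Cgas-/-. In the P301S groups they ran from 38.9 over a median of 85.7 to 111 CPM (Cgas+/+), from 37.9 over 84.3 to 122 CPM (Cgas+/-) and from 49.0 over 91.8 to 136 CPM (Cgas-/-). Of the 18 P301S libraries, 13 lay above all others and the remaining ones overlapped with them. The log2 fold change was 1.05 ± 0.23 (SE; interval 0.60 to 1.50; edgeR adjusted p = 0.00548). Rel, the other activating subunit in the list, was at 95.1 ± 14 CPM with and 86 ± 11.7 CPM without P301S, with 3 of 18 P301S libraries above all others (log2 fold change 0.15 ± 0.11, edgeR adjusted p = 0.47).

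Nfkbia, the gene of IκBα, was at 0, 24.4, 32.8, 14.6 and 11.2 CPM in Cgas+/+, 3.73 and 11.1 CPM in Cgas+/-, and 13.5 and 9.95 CPM in Cgas-/-. The lowest, median and highest P301S libraries held 10.9, 27.8 and 39.9 CPM. Only 5 of 18 lay above all 9 others, since 1 Cgas+/+ library was at 32.8 CPM. The log2 fold change was 1.18 ± 0.33 (SE; interval 0.54 to 1.83; edgeR adjusted p = 0.0141). It differed between parts of the data: the mean log2(CPM + 1) difference was 1.86 among males and 0.0957 among females, where 2 non-transgenic mice were available. It was 2.08 among libraries with version 3.0.2 of the counting software in the file header (all male) and 0.408 with version 3.1.0. Cgas+/+ replicate 1, a male of version 3.0.2 at 0 CPM, enters the larger value of both splits. The mean levels with and without P301S were 29.7 and 10.5 CPM among males and 25 and 23.7 CPM among females. By version they were 32.5 and 10.4 CPM (3.0.2) and 24.8 and 19.5 CPM (3.1.0).

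Tnfaip3, the gene of A20, was at 16.5, 4.88, 4.68, 5.86 and 9.33 CPM in Cgas+/+, 7.46 and 12.6 CPM in Cgas+/-, and 8.58 and 13.3 CPM in Cgas-/-. The lowest, median and highest of the 18 P301S libraries were 8.46, 18.4 and 31.9 CPM, and 11 lay above all others. The log2 fold change was 1.05 ± 0.26 (SE; interval 0.53 to 1.56; edgeR adjusted p = 0.00941). Tnfaip3 passed the filter on low counts through P301S libraries, so this call is not read as support. For Nfkb1, Relb and Tnfaip3 the P301S difference in log2(CPM + 1) was of like size within both header versions, at 0.544 and 0.569 for Nfkb1, 0.922 and 0.854 for Relb, and 0.937 and 1.32 for Tnfaip3 (3.0.2 and 3.1.0).

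**Figure D2:**
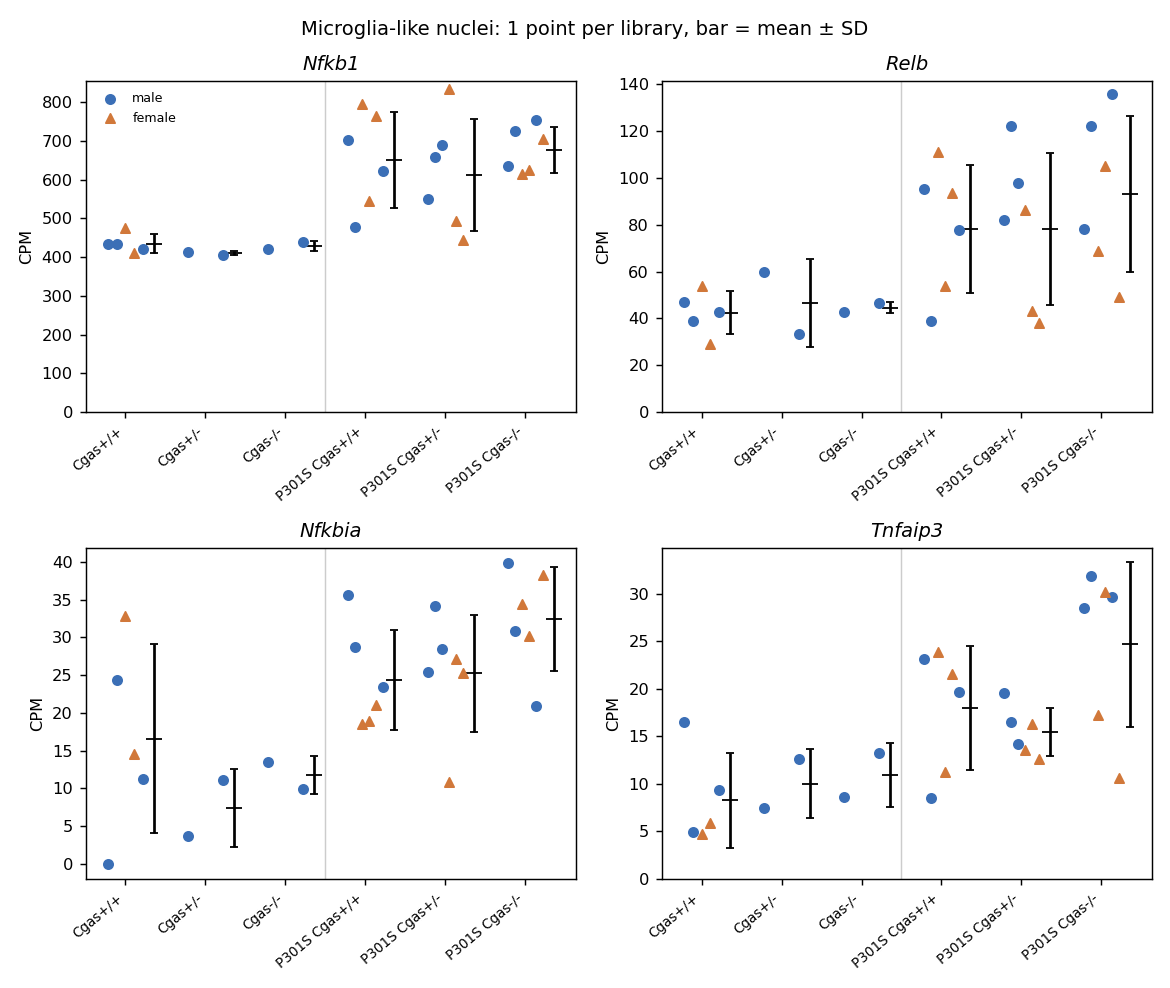
CPM of Nfkb1, Relb, Nfkbia and Tnfaip3 in microglia-like nuclei, with 1 point per library (circles male, triangles female) and the mean ± SD of each labelled group. In Nfkb1, 17 of 18 P301S libraries lie above all 9 others, and in Nfkbia 5 of 18 do.

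Nfkb1 shares its chromosome with Gm43049, a gene that separated the P301S libraries from the others. This transcript, 5 megabases from Nfkb1, was at 2.72 to 17.5 CPM over all kept nuclei in the 18 P301S libraries and at 0 to 0.0828 CPM in the 9 others. Of 56 other genes tested within 10 megabases of Nfkb1 in microglia-like nuclei, 12 (21.4%) were called in the P301S contrast, 7 higher and 5 lower, against 11.6% of all genes. Effects of the P301S transgene and of DNA inherited with it near Nfkb1 cannot be told apart in this design. The other 3 called members lie on other chromosomes.

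Some marker lists of other cell types differed with P301S in the same nuclei, and others differed little. The summed oligodendrocyte list was at a median of 514 CPM (highest 655) with P301S and 330 CPM (269 to 546) without, with 7 of its 8 markers higher. The list of border-associated macrophages was at 185 CPM (91.2 to 387) and 379 CPM (235 to 625), with 0 of 7 higher. The T cell list was at 7.99 CPM (0 to 20.7) and 4.71 CPM (2.44 to 14.6), with 6 of 7 higher, and the list of committed oligodendrocyte precursors at 1660 and 1350 CPM, with 5 of 6 higher. The 6 neutrophil markers summed to 869 and 696 CPM, with 2 higher and S100a8, Retnlg and Mmp8 at 0. The inhibitory neuron list was at 347 and 440 CPM and the choroid plexus list at 32.3 and 50.6 CPM, both with none of their 7 and 6 markers higher. The endothelial list was at 72.4 CPM (9.49 to 263) with P301S and 49 CPM (32.8 to 86.9) without, with 1 of 8 markers higher. Flt1 was a leading gene both of the endothelial-like cluster and of sub-cluster B of the microglia-like nuclei, described below. Such sums therefore do not tell RNA of other cell types from that of microglia. The excitatory neuron list was at 694 and 682 CPM, with 2 of 8 higher, and the astrocyte list at 546 and 515 CPM, with 3 of 8. The lists not named here had lower medians with P301S. The microglia list itself was at 10300 CPM with and 11400 CPM without P301S, with 2 of 9 higher. The part of these changes in the members' levels was not tested.

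Of the inflammasome genes, Nlrp3 and Casp1 were tested and neither was called. Nlrp3, the sensor, was at 72.9, 92.7, 46.8, 103 and 59.7 CPM in Cgas+/+, 52.2 and 71.1 CPM in Cgas+/-, and 83.3 and 111 CPM in Cgas-/-. The lowest, median and highest P301S libraries held 33.3, 71.7 and 150 CPM, which spanned the range of the other 9. The means were 73.3 ± 27.4 CPM (SD, n = 18) with and 76.9 ± 22.3 CPM (n = 9) without P301S. Its log2 fold change of -0.27 ± 0.19 had an interval of -0.64 to 0.09 (edgeR adjusted p = 0.387). The sign turned between parts of the data: the difference in log2(CPM + 1) was -0.379 among males and 0.246 among females, and -0.285 with header version 3.0.2 and 0.116 with 3.1.0. Casp1 was at 9.88 ± 6 CPM (n = 18) and 6.7 ± 5.48 CPM (n = 9), from 158 and 28 UMIs (log2 fold change 0.85 ± 0.49, edgeR adjusted p = 0.255).

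The cytokine transcripts were rare. Il1b had 1 UMI in the 9 non-transgenic libraries together and 91 UMIs in the 18 P301S libraries, in which its lowest, median and highest levels were 0, 5.08 and 15.4 CPM. The ratio of pooled levels was 26.5, with a counting interval of 4.64 to 1060, and 15 of 18 P301S libraries lay above all others. Tnf had 9 and 143 UMIs, and its lowest, median and highest P301S libraries were at 0, 6.71 and 20.9 CPM, against 0, 1.66 and 5.60 CPM without the transgene. Its pooled ratio was 4.63 (2.37 to 10.3), with 12 of 18 P301S libraries above all others. T cell-like nuclei held the highest pooled Tnf level, and the part of the T cell markers given above in this ratio was not tested. Nfkb2 had 7 and 80 UMIs, a ratio of 3.33 (1.54 to 8.54), with 10 of 18 above. The mean difference in log2(CPM + 1) was 2.30 for Il1b (exact two-sided permutation p = 8.11e-06 over mice), 1.60 for Tnf (p = 0.00144, same test) and 1.13 for Nfkb2 (p = 0.00996, same test). The Nfkb2 difference was 1.34 among males and 0.151 among females, with 2 non-transgenic females, and that of Tnf was 1.40 and 2.71. The permutation did not account for sex. Without P301S Cgas+/+ replicate 2, Tnf passed the filter on low counts through its P301S libraries, so its call in that fit is not read. These 3 tests were chosen after the values were seen and their p-values are raw. The smallest p the permutations allow was 2.13e-07.

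**Figure D3:**
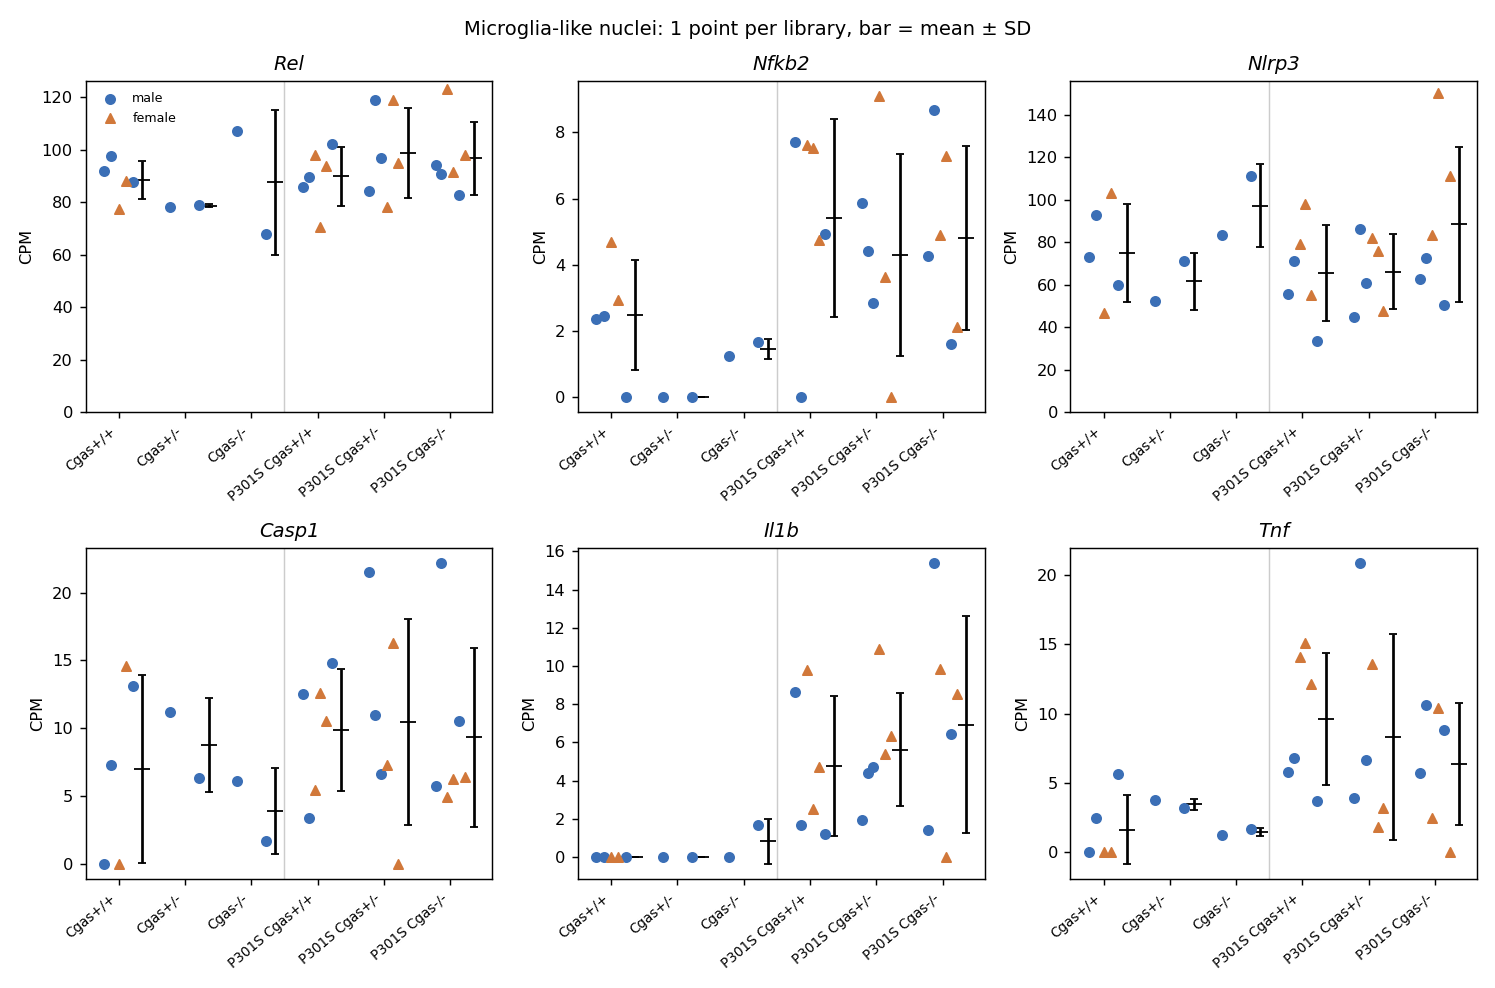
CPM of the other 6 genes in microglia-like nuclei, with 1 point per library (circles male, triangles female) and the mean ± SD of each labelled group. Nlrp3 and Rel overlap between P301S and other libraries, and Il1b holds 1 UMI in all 9 libraries without P301S.

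Restricted to intact Cgas, P301S Cgas+/+ against Cgas+/+ (the tau contrast, 6 and 5 mice of a 23-mouse fit), no member was called. By edgeR, 0 of 9080 genes (0%) passed, although 1422 had an unadjusted p under 0.05 and DESeq2 called 240 genes. The estimates were close to those above for 3 members: 0.58 ± 0.15 for Nfkb1 (edgeR adjusted p = 0.094), 0.95 for Relb (0.14) and 1.19 for Tnfaip3 (0.12), while Nfkbia was at 0.56 (0.52). The count of calls depended on the setting. With all libraries, 5 members were called without the filter on low counts, beside 801 of 21539 genes (3.72%), and DESeq2 called 1 member. Without P301S Cgas+/+ replicate 2, a male and the left-out library that gave the most calls, 384 genes were called. Among them were Nfkb1 at 0.66 (edgeR adjusted p = 0.0186), Relb at 1.11 (0.0272) and Tnfaip3 at 1.35 (0.0264). Tnfaip3 passed the filter mainly through P301S libraries, as above, so its call in this fit is not read as support. Without P301S Cgas+/+ replicate 2 the P301S contrast called 1406 genes, and Nfkb1 was at 0.65 (edgeR adjusted p = 0.000336). Without P301S Cgas+/+ replicate 4 the tau contrast called 29 genes and no member. Leaving out Cgas+/- replicate 2 instead lowered the P301S contrast to 228 genes, and Relb at 0.91 (edgeR adjusted p = 0.0622) and Nfkbia at 1.59 (0.0561) lost their calls. Leaving out Cgas-/- replicate 1 or 2 gave 498 and 610 genes.

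Deletion of Cgas on the P301S background (P301S Cgas-/- against P301S Cgas+/+) gave no called member in microglia-like nuclei. By edgeR and by DESeq2, 0 of 9080 genes (0%) were called, and 227 had an unadjusted edgeR p under 0.05. The difference in Nfkb1 was 0.03 ± 0.14 (SE), with an interval of -0.24 to 0.30. The intervals were -0.30 to 0.69 for Relb, -0.09 to 0.91 for Tnfaip3, -0.25 to 0.97 for Nfkbia, -0.04 to 0.85 for Nlrp3, -0.20 to 0.31 for Rel and -1.09 to 0.85 for Casp1. The deletion differences without P301S Cgas+/+ replicate 2 were -0.04 for Nfkb1, 0.04 for Relb, 0.27 for Tnfaip3, 0.40 for Nfkbia, 0.06 for Rel and -0.30 for Casp1, and none was called. With all libraries, a 2-fold lower level in libraries labelled P301S Cgas-/- lay outside the interval for every one of these except Casp1. The medians of the 6 libraries, 32.6 CPM for Nfkbia and 29.1 CPM for Tnfaip3, were above the 22.2 and 20.7 CPM of P301S Cgas+/+, and the groups overlapped. Nlrp3 at 0.41 ± 0.23 had an unadjusted edgeR p of 0.0836 and an adjusted p of 1.0. When P301S Cgas+/+ replicate 2 was left out, it was at 0.49 ± 0.23, with an unadjusted edgeR p of 0.0465 and an adjusted p of 1.0.

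The heterozygous comparison (P301S Cgas+/- against P301S Cgas+/+) gave intervals of -0.37 to 0.17 for Nfkb1 and -0.53 to 0.47 for Relb. Those for Tnfaip3 and Nfkbia were -0.85 to 0.23 and -0.61 to 0.65. The differences without P301S Cgas+/+ replicate 2 were -0.17, -0.19, -0.45 and 0.06 in the same order of genes, and none was called. That fit dropped a library of P301S Cgas+/+ alone. P301S Cgas+/- replicate 6, with 1.65% of its microglia-like nuclei in sub-cluster B (described below), stayed in. None of the 7 members tested was called, and 0% of genes were by edgeR and DESeq2 (190 with an unadjusted edgeR p under 0.05). The comparison of Cgas-/- with Cgas+/+ and the interaction of P301S with deletion also had 0% of genes and no member called in microglia-like nuclei by both tools (262 and 302 genes with an unadjusted edgeR p under 0.05). With 2 Cgas-/- mice, those intervals are wider.

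**Figure D4:**
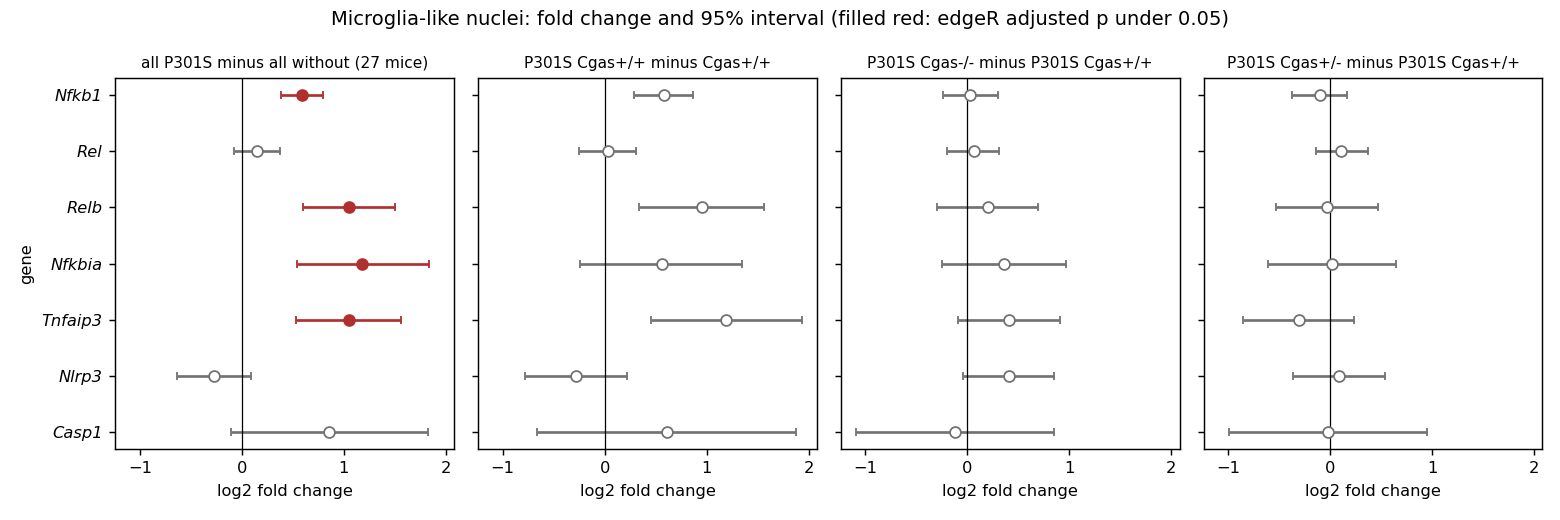
Log2 fold change with 95% interval of the 7 members tested in microglia-like nuclei, for the P301S, tau, deletion and heterozygous contrasts, with filled red points where the edgeR adjusted p was under 0.05. Nfkb1, Relb, Nfkbia and Tnfaip3 lie above 0 in the P301S contrast (0.59 to 1.18), and every interval of the deletion contrast holds 0. Tnfaip3 passed the filter on low counts through P301S libraries.

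The microglia-like nuclei fell into 3 sub-clusters when clustered without the 10 genes and without the wider list of their pathway. Sub-cluster A (6335 nuclei) had P2ry12 at 999 CPM and Siglech at 931 CPM, both homeostatic microglial genes. Sub-cluster B (4931 nuclei) was led by Lpl and Itgax and had Apoe at 1762 CPM against 129.4 CPM in A, genes known from disease-associated microglia. Sub-cluster C (123 nuclei) was led by F13a1, Mrc1 and Cd163, genes of border-associated macrophages. B held 0.36% to 3.94% of the microglia-like nuclei of a library without P301S and 1.65% to 91.5% with it.

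In 11 P301S mice with at least 50 nuclei in both A and B, B was the higher in Nfkb1 (11 of 11 mice), Relb (11 of 11) and Tnfaip3 (11 of 11). The median over these mice went from 543 CPM in A to 710 CPM in B for Nfkb1, from 53.3 to 106 CPM for Relb and from 8 to 26.6 CPM for Tnfaip3. Il1b and Tnf were higher in B in 10 of 11 mice each, with medians of 5.46 and 9.05 CPM in B and 0 CPM in A. Nlrp3 had the opposite order in most mice, with B higher in 3 of 11 and medians of 74.4 CPM in A and 59.7 CPM in B. Rel, Nfkbia and Casp1 were higher in B in 8 of 11 mice each and Nfkb2 in 7 of 11. With all libraries pooled, Il1b was highest in C, at 41.06 CPM from 8 UMIs, against 7.481 CPM in B and 1.032 CPM in A. These comparisons carry no test, because the nuclei were split on their own expression. Nuclei in B were also deeper, with a median of 1896 UMIs against 1474 in A.

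The 4 P301S libraries lowest in Nfkb1 (443, 479, 492 and 544 CPM) had 1.65%, 4.74%, 10.2% and 14.2% of their microglia-like nuclei in B. The library with 4.74% was P301S Cgas+/+ replicate 2, the lowest of its group. Replicate 4 of that group had 14.2% and the other 4 had 45.5% to 90.2%. Within A alone, Nfkb1 was at a median of 532 CPM (428 to 673) in 15 P301S mice and 424 CPM (400 to 484) in 9 others. Relb in A was at 53 and 44.7 CPM, Tnfaip3 at 10.4 and 8.88 CPM and Nfkbia at 24.6 and 10.4 CPM in the same mice. The differences of Nfkb1, Relb and Tnfaip3 in A were smaller than over all microglia-like nuclei, while that of Nfkbia was of like size. The part of the sub-clusters in the P301S contrast was not tested.

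**Figure D5:**
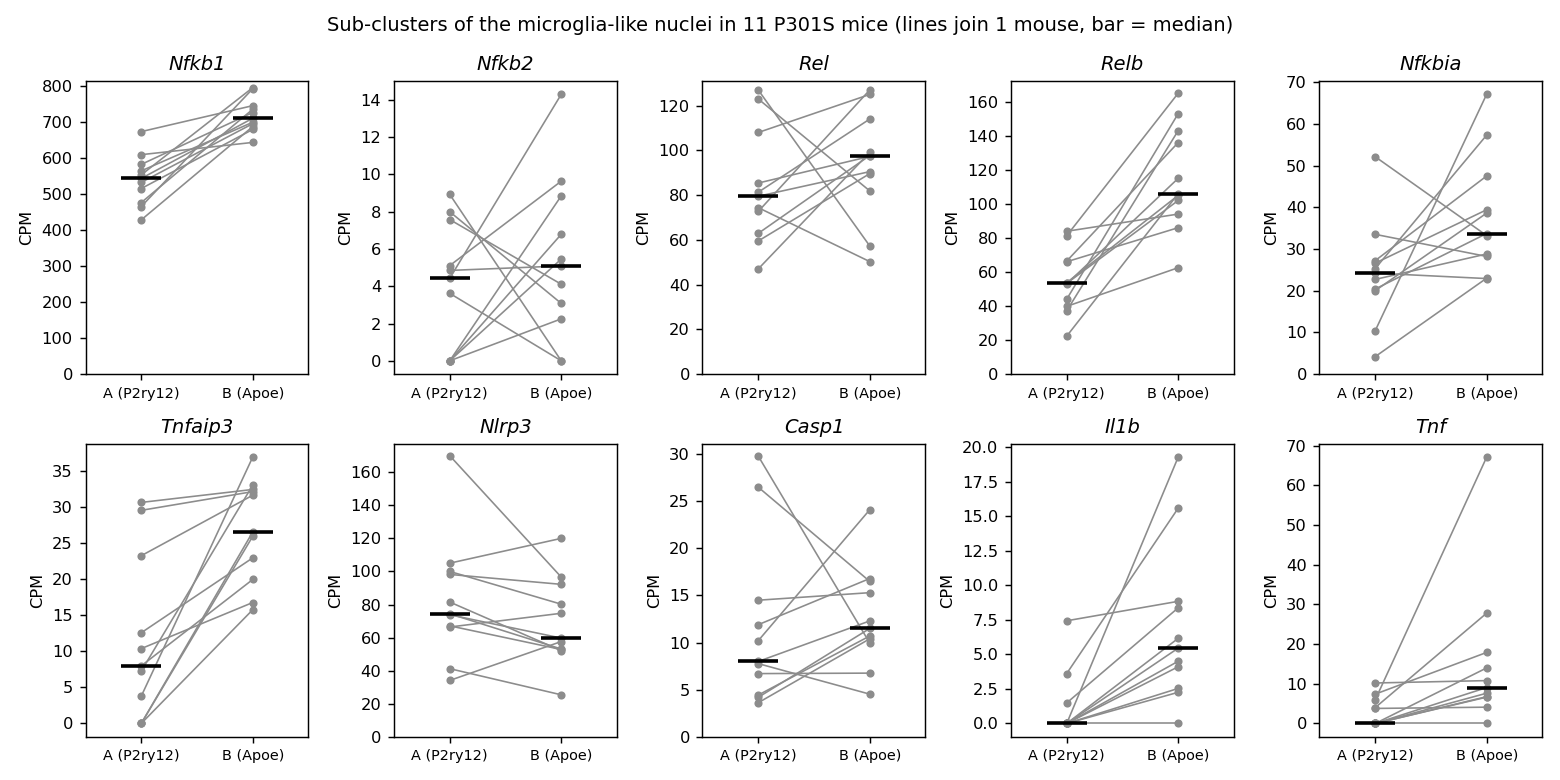
CPM of the members in sub-clusters A and B of microglia-like nuclei, with a line per P301S mouse that has at least 50 nuclei in each (11 mice) and a bar at the median. Relb and Tnfaip3 are higher in B in 11 of 11 mice and Nlrp3 in 3 of 11.

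In astrocyte-like nuclei 5 members were tested in the P301S contrast, and 1 was called. Nfkbia was at 28.5 ± 10.3 CPM (SD, n = 18) with P301S and 19.4 ± 4.12 CPM (n = 9) without, and 11 of 18 P301S libraries lay above all others. Its log2 fold change was 0.67 ± 0.18 (edgeR adjusted p = 0.0475), beside 2.76% of genes called and 2.11% called higher. Leaving out any 1 of the 4 Cgas+/- and Cgas-/- mice left 1 to 5 genes called there. The call of Nfkbia was lost in 16 of 27 fits that left out 1 mouse and in 4 other alternatives. Over those 27 fits its log2 fold change ran from 0.59 to 0.74. Relb was at 20.1 ± 10.9 CPM (n = 18) and 11.4 ± 3.23 CPM (n = 9), a log2 fold change of 0.83 ± 0.28 (edgeR adjusted p = 0.112). Nfkb1, at 245 ± 44 CPM (n = 18) and 209 ± 16.5 CPM (n = 9), was not called. No member was called by edgeR or DESeq2 in the tau contrast, where edgeR called 0.00769% of genes and DESeq2 172 genes. The same held for Cgas genotype, where edgeR called 0% of genes. At an unadjusted edgeR p under 0.05 there were 613 genes for deletion, 402 for the heterozygous comparison and 625 for the interaction. DESeq2 called 1 gene for deletion and 8 for the interaction, and edgeR called 2 for deletion without P301S Cgas+/+ replicate 3.

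In oligodendrocyte-like nuclei 4 members were tested and none was called in the P301S contrast (0.0077% of genes called) or the tau contrast (0.00808%). Nfkbia there was at 18.6 ± 10.8 CPM (SD, n = 18) with and 11.5 ± 4.86 CPM (n = 9) without P301S. In excitatory neuron-like nuclei, the deepest class, 6 members were tested and none was called in the P301S contrast (2.24% of genes called), the tau contrast (0.0237%) or the interaction (0.186%). In the P301S contrast Relb had the opposite sign to microglia there. It was at 7.02 ± 1.51 CPM (n = 18) with and 8.57 ± 1.81 CPM (n = 9) without P301S (log2 fold change -0.38 ± 0.15, edgeR adjusted p = 0.174). Rel was at 7.37 ± 1.51 CPM and 6.24 ± 2 CPM (log2 fold change 0.35 ± 0.14, edgeR adjusted p = 0.169). In the tau contrast, with intact Cgas, Relb was at -0.01 ± 0.21 and Rel at -0.17 ± 0.19, so neither sign is read as a direction. None of 4 members was called for inhibitory neuron-like nuclei in the P301S contrast (0.0361%) or the tau contrast (0.00764%). In both neuron classes and in oligodendrocyte-like nuclei no member was called in the 2 contrasts between Cgas genotypes with P301S, by edgeR or DESeq2. By edgeR 0% of genes were called in them. At an unadjusted edgeR p under 0.05, deletion had 2293 excitatory, 700 inhibitory and 541 oligodendrocyte genes, and the heterozygous comparison had 2032, 574 and 388. DESeq2 called 123 excitatory and 5 inhibitory genes for deletion, and 127 and 5 for the heterozygous comparison. Without P301S Cgas+/+ replicate 1, edgeR called 16 genes in the excitatory heterozygous comparison. Endothelial-like nuclei were too few in some libraries for a fit. Nfkbia was at 238 ± 117 CPM (n = 17) in the P301S mice that had them and 135 ± 88.1 CPM (n = 9) in the others, which was not tested.

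Whether the P301S difference was larger in microglia-like nuclei was tested on the difference between classes within each mouse, as log2(CPM + 1), by permuting the P301S label over the 27 mice. For Nfkb1 the microglial difference exceeded the astrocyte one by 0.36 (exact two-sided permutation p = 1.26e-05) and the excitatory one by 0.53 (p = 7.47e-06, same test). For Relb it exceeded the excitatory difference by 1.10 (exact permutation p = 0.000277), while the excess over astrocytes was 0.21 (p = 0.337, same test). For Tnfaip3 the excess over excitatory neurons was 1.13 (exact permutation p = 3.67e-05). Its excitatory levels, 1.05 ± 0.352 CPM with and 1.23 ± 0.419 CPM without P301S, were about the pseudocount of 1, so the size of this excess depends on it. The ratios of pooled levels, which use no pseudocount, were 2.14 (counting interval 1.55 to 3.02) in microglia-like and 0.834 (0.723 to 0.963) in excitatory neuron-like nuclei. Tnfaip3 was under 1 CPM in astrocyte-like nuclei, at 0.926 ± 0.732 CPM (n = 18) with and 0.357 ± 0.358 CPM (n = 9) without P301S, from 58 and 12 UMIs. Its value against astrocytes, 0.55 (exact permutation p = 0.0259), likewise depends on the pseudocount, and no difference is read from it, since the pooled ratio there was 2.48 (1.32 to 5.07). For Nfkbia the values were 0.91 over astrocytes (exact permutation p = 0.0397) and 1.23 over excitatory neurons (p = 0.00206, same test). Both depend on Cgas+/+ replicate 1, whose microglia-like nuclei held 0 UMIs of Nfkbia. Without it they were 0.44 (exact permutation p = 0.18) and 0.79 (p = 0.00906, same test). Excitatory Nfkbia was at 1.89 ± 0.727 CPM with and 1.56 ± 0.455 CPM without P301S, near the pseudocount. The pooled ratios were 1.95 (counting interval 1.48 to 2.60) in microglia-like, 1.51 (1.37 to 1.65) in astrocyte-like and 1.19 (1.06 to 1.34) in excitatory neuron-like nuclei. No difference between microglia and astrocytes is read for Nfkbia. The genes tested were the 4 called in microglia-like nuclei, a choice that favours an excess there. These 8 tests were added after the values were seen and their p-values are raw.

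Sex was compared as female minus male over 23 mice. In microglia-like nuclei no member was called (0.0881% of genes were), and Nlrp3 was at 0.46 ± 0.17 (SE; edgeR adjusted p = 0.394). In excitatory neuron-like nuclei Nfkb1 was called higher in females by 0.20 ± 0.06 (edgeR adjusted p = 0.0359), beside 7.96% of genes called. The call was lost in 12 of 23 fits that left out 1 mouse (highest edgeR adjusted p = 0.0775). With the header version as a covariate Nfkb1 was at 0.08 (edgeR adjusted p = 0.663). Every library of version 3.0.2 was male. Of the wider pathway list, 5 of 55 genes tested were called in the excitatory class, a share near that of all genes. These were Pycard, Otulin, Irak4, Tlr4 and Nlrp1b, all lower in females (log2 differences of -0.43 to -0.95). Otulin was 1 of 42 called in inhibitory and Pycard 1 of 47 in oligodendrocyte-like nuclei (-0.43 and -1.17). With the header version as a covariate, all genes called fell from 1342 to 12, from 313 to 8 and from 230 to 16 in these 3 classes. No member was called in astrocyte-like (2.05% of genes called), oligodendrocyte-like (1.86%) or inhibitory neuron-like nuclei (2.39%).

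The wider pathway was followed with a list of 84 other genes of NF-κB and inflammasome signalling. In microglia-like nuclei 62 were tested in the P301S contrast, 14 were called higher and 1 lower, beside 11.6% of all genes called and 7.41% called higher. Leaving out 1 mouse at a time gave 5 to 16 called genes of the list, with 5 when Cgas+/- replicate 2 was left out. The median log2 fold change was 0.23 over these 62 genes and 0.00 over all genes. Over the 7 members tested it was 0.85, the value of Casp1, which was not called. Casp1 and some genes of the list passed the filter through P301S libraries, so no difference is read from these medians. Counted by role, 3 of 9 ubiquitin editors and brakes were called higher, as were 3 of 12 receptors, 2 of 13 inflammasome genes, 2 of 4 other NF-κB family and IκB genes and 2 of 2 other textbook targets. Of the adaptors 1 of 6 was called higher, of the kinases 1 of 14 and of the cytokines and their inhibitors 0 of 2. The 14 genes called higher, and the counts by role, include Bcl3, Il1r1 and Tlr2. These reached the filter level in P301S libraries alone, so the counts are not read as shares.

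Among the regulators, Nfkbiz, a nuclear IκB protein, rose by 1.22 ± 0.25 on the log2 scale (SE; edgeR adjusted p = 0.0034) and Tnip1, a partner of A20, by 1.11 ± 0.26 (edgeR adjusted p = 0.0062). Bcl3, another nuclear IκB protein, was at 8.48 ± 5.2 CPM (SD, n = 18) with and 1.7 ± 2.55 CPM (n = 9) without P301S, from 154 and 8 UMIs. Nlrc5, an NLR protein best known as a transactivator of MHC class I genes, was at 106 ± 66.3 CPM (SD, n = 18) with and 13.1 ± 10 CPM (n = 9) without P301S, a rise of 3.74 ± 0.85 (SE; edgeR adjusted p = 0.00252). Birc3, Icam1, Zc3h12a, Il1rl1 and Irak2 were also called higher, by 0.54 to 1.30. Traf3, an adaptor, rose by 0.51 ± 0.12 (edgeR adjusted p = 0.00994). The filter level was reached by Bcl3 in 2, Il1r1 in 10 and Tlr2 in 12 of the 18 P301S libraries and in 0 of 9 others, so the calls of these 3 genes are not read as support. Among receptors, Il1r1, which binds IL-1, rose by 2.28 ± 0.58 (edgeR adjusted p = 0.00481) and Tlr2, a receptor of bacterial lipoproteins, by 1.64 ± 0.47 (0.0108). Casp4, the caspase of the non-canonical inflammasome, rose by 1.32 ± 0.26 (edgeR adjusted p = 0.00184). Naip2, a sensor of bacterial secretion system proteins, rose by 0.70 ± 0.14 (edgeR adjusted p = 0.0034), although reads could be split with other Naip copies. The 1 gene called lower was Txnip, whose protein binds NLRP3, at -0.85 ± 0.24 (edgeR adjusted p = 0.0218). By edgeR with all libraries of the fit, no gene of the list was called in the tau, deletion or heterozygous contrast in these nuclei. Of all 9080 genes tested, 0 were called in each. In the tau contrast 19 of 58 list genes had an unadjusted edgeR p under 0.05, and 1 in each of the other contrasts. Calls of the list in these contrasts were not counted under other settings.

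In astrocyte-like nuclei 55 genes of the list were tested, 8 were called higher and 1 lower, beside 2.76% of all genes called and 2.11% called higher. Leaving out 1 mouse at a time gave 0 to 11 called genes of the list, with 0 when any 1 of the 4 Cgas+/- and Cgas-/- mice was left out. Bcl3 was at 19.7 ± 20.4 CPM (SD, n = 18) with and 0.448 ± 0.404 CPM (n = 9) without P301S. Icam1, an adhesion molecule, was at 7.88 ± 9.6 CPM and 0.702 ± 0.81 CPM. Map3k14, the NIK kinase of the non-canonical arm, was at 117 ± 39.1 CPM and 64.2 ± 8.07 CPM. Nlrc5 was at 22.2 ± 14.2 CPM and 3.7 ± 2.37 CPM. The others called higher were Il1r1, Il6ra, Tnfrsf1a and Ier3 (log2 fold changes of 1.04 to 2.48). Bcl3, Icam1, Il6ra and Ier3 reached the filter level there in P301S libraries alone. Their calls are therefore not read as support, and the count of 8 is not read as a share. For Bcl3, Icam1 and Ier3 the SD of the P301S libraries exceeded the mean. Irak2, a kinase of IL-1 receptor signalling, was the gene called lower there, and it was called higher in microglia-like nuclei (0.54 ± 0.13, edgeR adjusted p = 0.0106) and in excitatory neuron-like nuclei. The difference of Irak2 between classes was not tested.

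Among microglia-like nuclei, with group means removed, Nfkb1 and Relb correlated at r = 0.74 over the 27 mice and Relb and Tnfaip3 at r = 0.54, while Nfkb1 and Tnfaip3 were at r = 0.28. Nfkbia was at r = -0.12 with Nfkb1, -0.16 with Relb and -0.48 with Tnfaip3. The genes most like Nfkb1 were Gm37168 (0.93), Nrp1 (0.92) and Tns3 (0.91), and those most like Relb were Rasa4 and Ahnak2 (0.86 each). The genes most like Nlrp3 were Arhgap4 and Cdk16 (0.72 each). These are descriptions over libraries that also differ in depth and in their share of sub-cluster B.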

How the data were processed

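Single-nucleus RNA-seq was measured in 27 hippocampal libraries, 1 per mouse. The deposited files hold UMI counts per gene and barcode, which the authors made by counting pre-mRNA reads on mm10 with Cell Ranger 3.1.0, per the labels. File headers name version 3.0.2 in 12 libraries and 3.1.0 in 15, and the annotation release is not given in the sources used here. No normalization had been applied.

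The study's limits of 200 to 4000 genes and 5% mitochondrial UMIs were applied. The 16429 nuclei removed as likely doublets had the highest Scrublet scores of their library (scanpy 1.11.5). How many were removed was set beforehand from the barcode count of each library. The 2000 most variable genes, 30 principal components, 15 neighbours and Leiden resolution 1 gave the clusters, without the 94 genes studied. Clusters were named from marker lists and are called "like" a cell type.

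The mouse was the replicate, so the counts of a class were summed within it. These sums went into edgeR 4.0.16 under R 4.3.3 (quasi-likelihood F test, TMM, filterByExpr, sex as covariate) over all genes, and an adjusted p under 0.05 (Benjamini-Hochberg) was called. Single values were tested over mice by exact permutation (scipy 1.17.1) on log2(CPM + 1). Endothelial-like nuclei, under 10 in some libraries, were not tested. The study left the groups of 2 mice out of its comparisons and tested nuclei, whereas the P301S contrast here used all 27 mice. The edgeR test of the P301S contrast in microglia-like nuclei was checked on simulated counts, and the other tests were not. DESeq2 1.42.0, other filters, a header version covariate and leaving out each mouse were the alternatives. The text names the 10 members and, of the pathway list, genes that were called. The members, lists and contrasts were chosen with earlier results of these data known.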

Additional observations from a re-analysis of the deposited data

Results flagged for a closer look

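Among 39 groups of 4 to 10 libraries tested for a library far from the others, 1 value stood out, and chance alone gives about 1 in 20. Casp1 in microglia-like nuclei was at 22.2 CPM in P301S Cgas-/- replicate 2, where the nearest of the other 5 libraries was at 10.5 CPM and the gap was 0.68 of the range of the group.

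The P301S difference in log2(CPM + 1) was compared between microglia-like nuclei and another class in 8 comparisons, by permutation of the P301S label over the 27 mice. The genes compared were the 4 called in microglia-like nuclei, a choice that favours an excess there. The comparisons were added after the values were seen, and their p-values are raw. The excess over astrocyte-like nuclei was 0.36 for Nfkb1. The excess over excitatory neuron-like nuclei was 0.53 for Nfkb1, 1.10 for Relb and 1.13 for Tnfaip3, whose excitatory levels were about the pseudocount. A value of 0.55 for Tnfaip3 over astrocyte-like nuclei also passed the test, but its astrocyte levels were under the pseudocount of 1 CPM (0.926 with and 0.357 without P301S), so no difference is read from it. Nfkbia gave 0.91 over astrocyte-like and 1.23 over excitatory neuron-like nuclei, which fell to 0.44 and 0.79 without Cgas+/+ replicate 1 (at 0 UMIs of Nfkbia), and the first is not read as a difference. In Nfkbia 1 of 18 P301S libraries lay above all 9 others in each of its 2 comparisons, and in Nfkb1 16 and 15 of 18 did.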

How the results depend on the processing

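Of 37 counts of called members or pathway genes, 8 moved by over 1.5 times under some alternative. Without the low-count filter, 7 members (4 otherwise) and 23 pathway genes (15 otherwise) were called in the P301S contrast in microglia-like nuclei, beside 1708 of 21799 genes (7.84%, against 11.6% with the filter), and 5 members in the tau contrast (0 otherwise), beside 801 genes, while in astrocyte-like nuclei 0 members and 2 pathway genes were called (1 and 9 otherwise). DESeq2 called 1 member in the microglial tau contrast. Without the sex covariate, with doublets kept, or with the header version as covariate, 0 members were called in the astrocyte P301S contrast. The version covariate also left 2 pathway genes there and 0 members in the sex difference of excitatory neuron-like nuclei.

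Leaving out 1 mouse at a time gave 2 to 5 members called in the microglial P301S contrast, 0 to 3 in the microglial tau contrast, and 0 to 1 in the astrocyte P301S contrast, the excitatory P301S contrast, the excitatory interaction and the excitatory sex difference. Pathway genes called in the P301S contrast ran from 5 to 16 in microglia-like and from 0 to 11 in astrocyte-like nuclei. The deletion difference of Nfkb1 in microglia-like nuclei ran from -0.04 to 0.09. Gene counts depended more on the setting. Over single left-out mice, the P301S contrast called 228 to 1406 genes in microglia-like (1123 with all), 1 to 801 in astrocyte-like (381), 7 to 1154 in excitatory neuron-like (397) and 1 to 35 in oligodendrocyte-like nuclei (1). With no filter on low counts it called 1708, 145, 206 and 16 genes in the same order, and DESeq2 called 722, 1036 and 195 in the last 3. With the version covariate it called 97 in astrocyte-like nuclei. The microglial tau contrast called 0 genes by edgeR, 801 without the filter, 240 by DESeq2, 26 in a fit of all 27 mice and 1 in a fit of 2 groups. The microglial deletion, heterozygous and interaction contrasts called 21, 31 and 39 genes without the filter and 0 otherwise, none a member. The excitatory interaction called 33 genes by edgeR, 906 by DESeq2 and 0 to 976 over single left-out mice. With the version covariate the sex difference called 12 genes in excitatory neuron-like (1342 otherwise), 13 in astrocyte-like (267), 16 in oligodendrocyte-like (230) and 8 in inhibitory neuron-like nuclei (313). Leaving out Cgas+/+ replicate 1 lowered the Nfkbia difference between microglia-like and astrocyte-like nuclei from 0.91 to 0.44, and its p was 0.05 or more in 8 of 27 fits that each left out 1 mouse. The cause of these changes was not tested. The P301S fold changes of the 4 called members kept their sign in all these fits. Endothelial-like alternatives were not run, as some libraries had under 10 such nuclei. Low counts limit Il1b, Tnf, Nfkb2 and Casp1. No paired analysis was possible because the replicate numbers name samples in accession order and do not link mice.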
